A study of Mus musculus with 14 samples.

Results

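The loci of 8 genes of the transforming growth factor beta (TGF-beta) pathway, Tgfbr1, Tgfbr2, Smad2, Smad3, Smad4, Smad7, Ski and Skil, were followed in bulk ATAC-seq, an assay in which a transposase cuts open chromatin and the reads in a region count its accessibility. A region belonged to a locus when the protein-coding start nearest to its midpoint was that gene's, or when the midpoint lay inside the gene body, and this rule used no measured value. It took 168 of the 67254 regions in the table, and 158 of them were among the 61366 regions with enough reads to test. Tgfbr2 held 49 regions, Smad7 38, Smad3 25, Smad2 and Ski 13 each, Skil 11, Tgfbr1 10 and Smad4 9. No region lay in a member's gene body while being nearest to another gene's start. The 10 regions that were not tested belonged to Smad3 (4), Smad7 (4) and Tgfbr2 (2).

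TGF-beta binds the type II receptor, encoded by Tgfbr2, which then phosphorylates the type I receptor, encoded by Tgfbr1. The type I receptor phosphorylates Smad2 and Smad3, which join Smad4 and enter the nucleus to regulate target genes, while the inhibitory Smad7 blocks the receptors and the corepressors Ski and SnoN, the product of Skil, hold Smad complexes in check. In T cells the pathway restrains activation and supports the induction of Foxp3, the lineage factor of regulatory T cells (Tregs), in the periphery.

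The libraries came from mixed bone marrow chimeras: Rag1-/- hosts, which make no T or B cells of their own, were sublethally irradiated and received CD45.2+ bone marrow and CD45.1+ wild-type bone marrow in a ratio of 1 to 1, with 6 to 8 weeks for reconstitution. The CD45.2+ marrow was Foxp3Cre Atg14+/fl in the control groups and Foxp3Cre Atg14fl/fl in the Atg14-deficient groups, so that the Cre recombinase, driven by Foxp3, and at least 1 floxed allele were present in every group, all on the C57BL/6 background. The labels give no age beyond the reconstitution time. Per the methods, some Foxp3Cre Atg14fl/fl mice of the study carried an Atg14+/- or Atg14-/- allele, without a notable difference in the phenotypes described there, and the labels do not say whether these donors did. Atg14 encodes the subunit that directs the lipid kinase Vps34 to autophagosome formation. From spleen, CD45.2+ CD4+Foxp3-YFP+ central Tregs (cTregs, CD44 low) and effector Tregs (eTregs, CD44 high) were sorted by surface markers, giving 3 control cTreg, 4 Atg14-deficient cTreg, 3 control eTreg and 4 Atg14-deficient eTreg libraries. Per the study, both cell states came from 3 control and 4 Atg14-deficient chimeras, and it does not state that each animal gave both.

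Total counts were between 2242983 and 5548189 per library, and levels are given in CPM, counts scaled to each library's total, where 1 CPM stood for 2.24 to 5.55 counts. A library with 0 counts allows up to 3 counts, or 0.541 to 1.34 CPM by its depth, if each count is independent. If both ends of a fragment were counted, the limit is 6 counts, or 1.08 to 2.68 CPM. Of genes known for cTregs, the promoter region of Ccr7, a homing receptor, had mean levels of 30.2 CPM in control and 37.3 CPM in Atg14-deficient cTregs against 11.1 and 19.5 CPM in eTregs, and that of the transcription factor Klf2 had 139.6 and 153.1 CPM against 86.2 and 112.2 CPM; both were lower in eTregs at the adjusted threshold of edgeR. Over 7 cTreg genes (Ccr7, Tcf7, Lef1, Bach2, Satb1, S1pr1 and Klf2) the summed promoter level was 393.5 to 515.6 CPM in cTreg and 264.8 to 367.0 CPM in eTreg libraries, and each but Lef1 had a region lower in eTregs. Of 10 eTreg genes 8 had a promoter region, with summed levels of 337.9 to 411.2 CPM in cTreg and 360.7 to 450.0 CPM in eTreg libraries, which overlap. Maf and Tigit had 1 region each that was higher in eTregs, and both regions of Icos, a costimulatory receptor, were lower, with a sum of 38.9 and 45.5 CPM in control and Atg14-deficient cTregs against 22.9 and 26.2 CPM in eTregs. Foxp3 and Cd4 had no region within 1 kb of a start, and the nearest regions of each had 7.53 to 26.7 and 16.1 to 47.1 CPM. Of the lists for other cells, 3 of 6 myeloid genes had a promoter region, with a summed level of 33.2 to 53.5 CPM in eTreg and 17.6 to 28.8 CPM in cTreg libraries, and Lyz2, Csf1r and Fcgr3 had none. For CD8 T cells, Cd8b1 had 1.54 to 6.83 CPM in eTreg and 10.3 to 21.4 CPM in cTreg libraries and Cd8a had no promoter region, and the 1 of 6 B cell, 1 of 3 NK cell and 1 of 3 erythroid genes with such a region had at most 17.2, 5.99 and 5.65 CPM. The part of these other cells in the results was not tested. The 5 regions nearest to Atg14 included none past the adjusted threshold in either genotype comparison, and the sources do not place any of them in the deleted part, so that they do not check the labels. In bulk libraries a change in the share of cells with an open region and a change within each cell cannot be told apart.

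Sequences of the central 200 bases are given for all 9 called regions of Tgfbr2, Smad3, Ski and Skil that differed between eTregs and cTregs by more than 1 on the log2 scale, to show what lay in the parts of the receptor, Smad3, Ski and Skil loci that moved. They were read from the plus strand of the GRCm38 assembly, 5' to 3', and the capitals mark matches on either strand to short motifs: SMAD CAGACA, AP-1 TGANTCA, RUNX TGTGGT, TCF/LEF CTTTGAN, FOX TGTTTAC, ETS CAGGAAG, KLF GGGNGTG, NFAT GGAAAA and NF-kappaB GGGANTTCC. Matches of different motifs may share bases, and a match is a description of letters and not evidence that a factor bound there.
Tgfbr2, 12240 bp upstream, lower in eTregs, chr9:116187504-116187703: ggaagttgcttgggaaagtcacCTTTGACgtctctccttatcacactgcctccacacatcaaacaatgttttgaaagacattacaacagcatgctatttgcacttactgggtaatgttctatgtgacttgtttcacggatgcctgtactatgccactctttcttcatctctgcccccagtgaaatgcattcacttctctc
Tgfbr2, intron, lower in eTregs, chr9:116164004-116164203: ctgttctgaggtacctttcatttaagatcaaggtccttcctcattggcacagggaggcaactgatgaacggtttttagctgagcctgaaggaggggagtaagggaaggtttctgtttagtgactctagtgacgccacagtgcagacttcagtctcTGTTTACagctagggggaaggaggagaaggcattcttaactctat
Tgfbr2, 33057 bp upstream, higher in eTregs, chr9:116208321-116208520: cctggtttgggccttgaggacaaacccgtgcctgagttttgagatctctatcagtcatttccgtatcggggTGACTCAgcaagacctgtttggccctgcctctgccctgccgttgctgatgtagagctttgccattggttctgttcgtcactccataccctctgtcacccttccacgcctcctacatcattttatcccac
Tgfbr2, 73115 bp upstream, lower in eTregs, chr9:116248379-116248578: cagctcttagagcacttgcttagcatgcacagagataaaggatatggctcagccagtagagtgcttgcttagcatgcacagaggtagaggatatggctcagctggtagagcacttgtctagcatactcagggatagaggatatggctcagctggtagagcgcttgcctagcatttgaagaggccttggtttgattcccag
Tgfbr2, 162331 bp upstream, lower in eTregs, chr9:116337595-116337794: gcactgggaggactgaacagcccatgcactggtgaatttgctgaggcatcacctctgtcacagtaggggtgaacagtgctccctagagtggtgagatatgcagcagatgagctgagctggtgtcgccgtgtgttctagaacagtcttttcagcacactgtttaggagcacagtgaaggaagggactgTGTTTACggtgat
Tgfbr2, 378026 bp upstream, higher in eTregs, chr9:116553290-116553489: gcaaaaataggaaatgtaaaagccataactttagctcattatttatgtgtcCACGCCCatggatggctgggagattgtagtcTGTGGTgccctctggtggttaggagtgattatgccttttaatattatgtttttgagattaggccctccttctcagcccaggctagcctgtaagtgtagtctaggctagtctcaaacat
Smad3 upstream region, higher in eTregs, chr9:63782711-63782910: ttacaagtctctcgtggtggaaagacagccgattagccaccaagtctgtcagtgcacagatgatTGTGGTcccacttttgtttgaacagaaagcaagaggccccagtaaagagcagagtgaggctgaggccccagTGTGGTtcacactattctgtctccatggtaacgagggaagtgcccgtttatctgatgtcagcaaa
Ski intron region, lower in eTregs, chr4:155195356-155195555: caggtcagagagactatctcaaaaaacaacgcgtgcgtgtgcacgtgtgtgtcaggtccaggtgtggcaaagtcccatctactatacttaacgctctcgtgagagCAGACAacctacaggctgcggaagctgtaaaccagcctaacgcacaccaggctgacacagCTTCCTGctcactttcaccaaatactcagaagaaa
Skil upstream region, lower in eTregs, chr3:31085006-31085205: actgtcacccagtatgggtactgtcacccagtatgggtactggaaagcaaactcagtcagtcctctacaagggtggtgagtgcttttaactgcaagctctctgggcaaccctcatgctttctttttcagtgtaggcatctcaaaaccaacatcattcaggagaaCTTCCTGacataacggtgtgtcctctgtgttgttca

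Of these windows, the Tgfbr2 region at 12240 bp held a TCF/LEF match, the Tgfbr2 intron region a FOX match, the region at 33057 bp an AP-1 match, the region at 162331 bp a FOX match and the region at 378026 bp a RUNX and a KLF match. The window at 73115 bp held a match to none of the motifs. The Smad3 window held 2 RUNX matches, the Ski window a SMAD and an ETS match and the Skil window an ETS match. Over all members, a SMAD match was in 18.4% of the 158 windows, against 17.9% of the tested regions on chromosomes, and the shares were 17.1% and 11.5% for AP-1, 25.3% and 22.7% for RUNX, 17.1% and 14.7% for TCF/LEF, 5.06% and 3.03% for FOX, 23.4% and 17.9% for ETS, 17.1% and 19.1% for KLF, 5.70% and 14% for NFAT and 2.53% and 1.79% for NF-kappaB. Among the members lower in eTregs, 7 of 23 held a TCF/LEF match (30.4%), where the share in all regions lower in eTregs was 24.4%, and 2 of 23 held an AP-1 match (8.70%, against 9.10%). Among the members higher in eTregs, 1 of 9 held an AP-1 match (11.1%), against 24.2% of all regions higher in eTregs. No test was made on these shares, which rest on few member regions.

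No promoter region of the 8 genes passed the adjusted threshold in any comparison, apart from that of Tgfbr2, which was higher in eTregs of Atg14-deficient libraries when promoter share was a covariate (edgeR adjusted p = 0.0424). The promoter region was, for each gene, the one with its midpoint nearest to a start and within 1 kb of it. Between eTregs and cTregs the log2 fold changes of the 8 regions were between -0.16 and 0.13, with a lowest adjusted p of 0.267 by edgeR's quasi-likelihood test with Benjamini-Hochberg adjustment. Per kb of region, the mean levels over the 14 libraries were highest at Skil (160 CPM per kb ± 12.1, SD), followed by Tgfbr1 (115 ± 19.5), Smad2 (101 ± 11.6), Ski (95.2 ± 20.7), Smad4 (86.8 ± 10.3), Tgfbr2 (74.1 ± 14.3), Smad7 (60.3 ± 5.82) and Smad3 (25.0 ± 7.25). The ranges of each pair of neighbours in this order overlapped, except that every library was lower at Smad3 (14.4 to 44.0 CPM per kb) than at Smad7 (45.9 to 67.6 CPM per kb).

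The Tgfbr1 promoter region (chr4:47352866-47353538, at the start of the type I receptor gene) had 80.7, 57.4 and 99.9 CPM in control cTregs, 61.7, 86.0, 64.2 and 65.5 CPM in Atg14-deficient cTregs, 74.2, 73.7 and 88.3 CPM in control eTregs and 74.3, 100.4, 81.0 and 75.5 CPM in Atg14-deficient eTregs. The 4 groups overlapped. The Smad2 promoter region (chr18:76241073-76242478) had 140.5 to 147.7 CPM in control cTregs, 108.8 to 147.9 CPM in Atg14-deficient cTregs, 139.6 to 160.4 CPM in control eTregs and 137.1 to 180.3 CPM in Atg14-deficient eTregs, again with overlap. The promoter region took a median of 64.3% of the summed CPM of all Smad4 regions, 57.9% at Smad2, 47.8% at Skil and 39.0% at Tgfbr1, but 23.8% at Ski, 7.30% at Smad3, 6.77% at Smad7 and 6.30% at Tgfbr2. The last 3 genes had the most member regions.

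**Figure D1:**
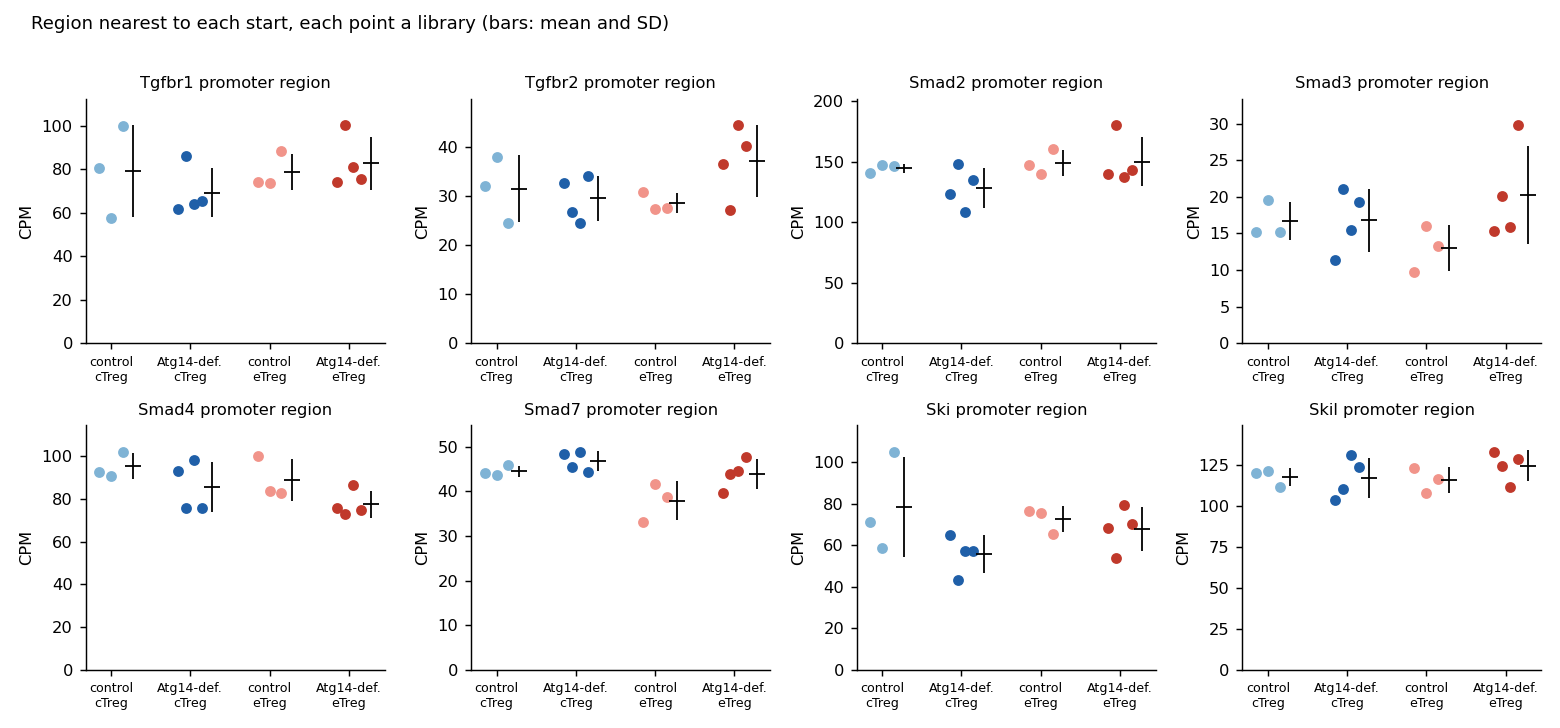
Accessibility in CPM of the region nearest to the start of each of the 8 genes, with each library a point in its group and the mean and SD beside it (3 or 4 libraries a group). The groups overlap in most panels, and no region passed the adjusted threshold in any comparison fitted without a covariate.

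Beside these 8 promoter regions, other regions at 7 of the 8 loci differed between eTregs and cTregs over both genotypes: 9 of the 158 tested members were higher in eTregs (5.70%, against 8.40% of all tested regions) and 23 were lower (14.6%, against 10.5% of all tested regions), at an adjusted p under 0.05 by edgeR's quasi-likelihood test and a log2 fold change beyond 0.5. The regions lower in eTregs were at Smad7 (9), which inhibits the receptors, Tgfbr2 (6), Smad4 (4), which joins the receptor Smads, and the corepressor genes Ski (2) and Skil (2). Those higher were at Tgfbr2 (3), Smad2 (2), Smad7 (2), Smad3 (1) and Smad4 (1), and no region of Tgfbr1 was called. The regions were assigned by position alone, and which gene a region regulates was not tested. The median log2 fold change of the members was -0.06, against 0.01 over all tested regions, and without 1 library it was between -0.13 (without control eTreg replicate 2, -0.0029 over all regions) and 0.00 (without control cTreg replicate 2, 0.03 over all regions). With promoter share as a covariate it was 0.08, against 0.04. With a block for the eTreg and cTreg library of each number in a genotype, 14 members were higher (8.86%, against 10.9% of all tested regions) and 24 lower (15.2%, against 12%). A change beyond 1 was seen in 20 of the 32, of which 14 were lower and 6 higher in eTregs. The split of all tested regions at that size was not counted. Leaving out Atg14-deficient cTreg replicate 3 gave 15 lower regions of 153 tested members. Over all regions that fit gave 5318 lower of 59714, beside 6465 of 61366 with every library. With the share of counts in promoter regions of each library as a covariate, 23 members were higher (14.6%) and 19 lower (12%), where all tested regions gave 12.9% and 11.4%, and 9 of the 9 higher and 18 of the 23 lower regions were called again. In that fit the calls included 7 higher regions at Smad3, 3 higher at Tgfbr1, 6 higher and 5 lower at Tgfbr2, and 4 higher and 6 lower at Smad7. This share was 55.8% ± 1.59 (SD, n = 7) in eTregs and 54.3% ± 2.22 (n = 7) in cTregs, an exact two-sided permutation p of 0.162.

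**Figure D2:**
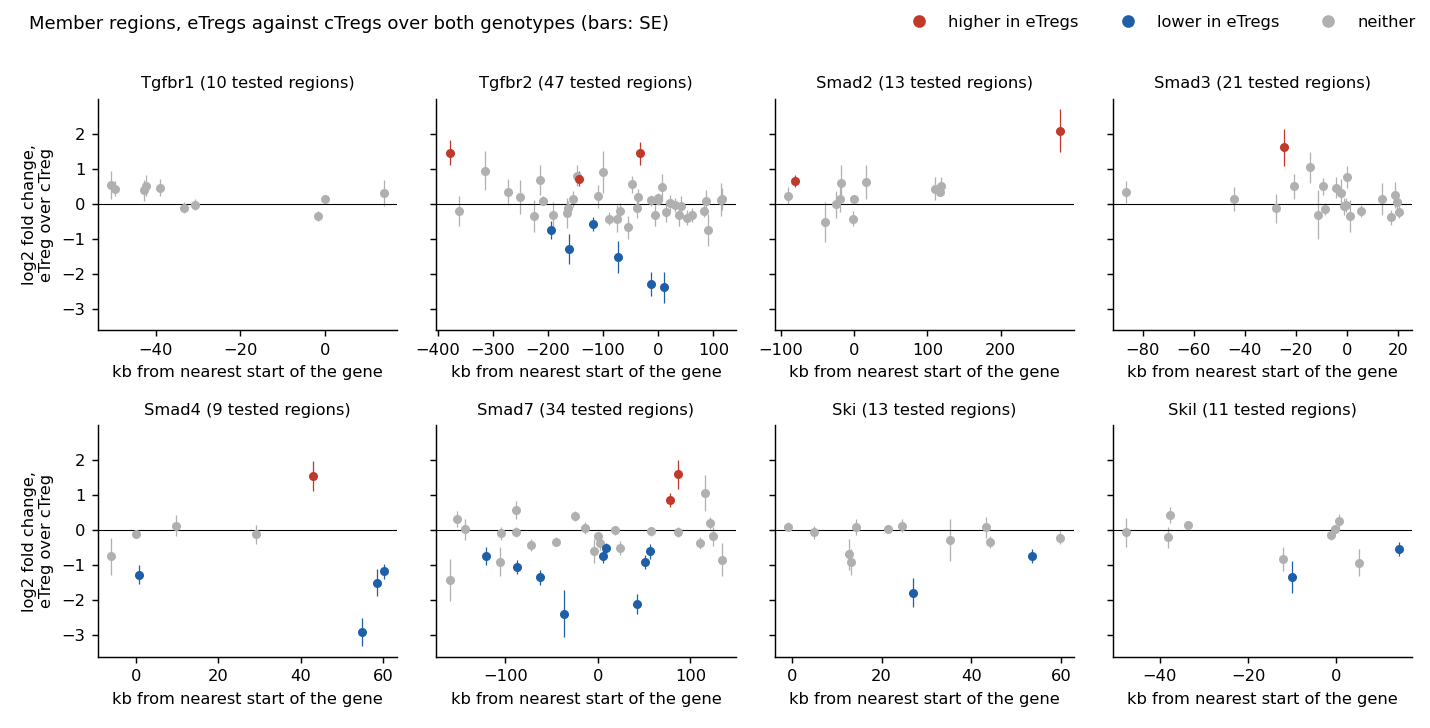
Log2 fold change of eTregs over cTregs (y axis, bars are SE) of the 158 tested member regions by distance in kb from the nearest start of the gene (x axis, upstream negative), 1 panel a gene. Red and blue points passed the adjusted threshold (9 higher, 23 lower), and the 8 promoter regions, near 0 kb, lie between -0.16 and 0.13.

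By distance, 1 of 12 members within 1 kb of a start was lower and none was higher, where all such regions gave 3.68% lower and 6.99% higher. Between 1 and 10 kb, 3 of 21 were lower, between 10 and 50 kb 6 of 59 were lower and 3 higher, between 50 and 100 kb 9 of 31 were lower and 3 higher, and beyond 100 kb 4 of 35 were lower and 3 higher. The shares of all tested regions called lower in those classes were 10.7%, 12.4%, 14.1% and 15.9%, and the shares called higher were 7.84%, 8.39%, 9.54% and 11.6%. By annotation, 10 of the 54 members in introns were lower (18.5%) and 1 higher (1.85%), where all tested regions in introns of their nearest gene gave 12.6% and 8.41%. Of the 79 upstream members 10 were lower (12.7%) and 5 higher (6.33%), against 10.4% and 8.42%, and of the 19 downstream members 3 were lower and 3 higher (15.8% each), against 11% and 9.13%. None of the 6 members in untranslated exons was called, against 4.74% lower and 7.49% higher.

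Tgfbr2 (chr9:116087695-116175363, minus strand), the ligand-binding receptor gene, had called regions in both directions, from 11260 bp inside the gene to 378026 bp upstream of it. The region 12240 bp upstream (chr9:116187429-116187778), shown above with its TCF/LEF match, had 11.7, 6.46 and 8.03 CPM in control cTregs, 12.6, 12.1, 12.6 and 6.10 CPM in Atg14-deficient cTregs, 1.30, 1.05 and 1.08 CPM in control eTregs and 3.90, 1.67, 6.09 and 1.54 CPM in Atg14-deficient eTregs. All eTreg libraries were below all cTreg libraries, by a narrow margin at the highest eTreg library. Its log2 fold change was -2.29 ± 0.33 (SE), with an edgeR adjusted p of 1.64e-05. The intron region 11260 bp downstream of the start (chr9:116163944-116164263) had 4.40, 5.27 and 2.68 CPM in control cTregs, 7.56, 15.2, 9.99 and 6.75 CPM in Atg14-deficient cTregs, 1.30, 1.31 and 1.80 CPM in control eTregs and 0.599, 3.35, 0.529 and 0 CPM in Atg14-deficient eTregs. The states overlapped here only because 1 Atg14-deficient eTreg library exceeded the lowest control cTreg library. The log2 fold change was -2.39 ± 0.43 (SE), with an edgeR adjusted p of 0.000244.

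The Tgfbr2 region 33057 bp upstream (chr9:116208237-116208603), with the AP-1 match, went the other way: it had 4.40, 10.5 and 3.57 CPM in control cTregs, 6.72, 0.779, 3.68 and 10.9 CPM in Atg14-deficient cTregs, 13.3, 20.5 and 15.5 CPM in control eTregs and 13.8, 10.0, 21.7 and 17.2 CPM in Atg14-deficient eTregs. The lowest eTreg library was just under the 2 highest cTreg libraries, and the others were above all cTregs. Its log2 fold change was 1.43 ± 0.32 (SE), with an edgeR adjusted p of 0.00263. Far upstream, at 378026 bp (chr9:116553248-116553530), cTreg libraries had 0.643 to 2.87 CPM (median 1.68) and eTreg libraries 3.18 to 6.49 CPM (median 4.62), without overlap. This gave a log2 fold change of 1.45 ± 0.36 (SE) and an edgeR adjusted p of 0.00455.

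Weaker calls at Tgfbr2 were at 73115 bp upstream, with 1.92 to 9.24 CPM in cTregs (median 3.86) and 0.361 to 3.35 CPM in eTregs (median 1.30), and at 162331 bp upstream, with 3.89 to 6.69 CPM in cTregs (median 4.31) and 0 to 3.35 CPM in eTregs (median 2.06). The former had an edgeR adjusted p of 0.0181, which rose to 0.104 without control cTreg replicate 3 and to 0.0563 without control eTreg replicate 3. The latter had an adjusted p of 0.0296, which was 0.0680 without control cTreg replicate 3, 0.0620 without Atg14-deficient cTreg replicate 3, 0.0672 without control eTreg replicate 1 and 0.0729 without control eTreg replicate 2. A further pair of regions, at 118931 and 193834 bp upstream, were lower, by log2 fold changes of -0.59 and -0.75, and 1 at 144276 bp upstream was higher, by 0.71.

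At Tgfbr1 (chr4:47353222-47414926, plus strand), the smallest p was that of a region 1619 bp upstream (chr4:47351448-47351759), with 23.5 to 38.6 CPM in cTregs (median 28.9) and 16.7 to 25.7 CPM in eTregs (median 23.4). The states overlapped, and the log2 fold change of -0.35 ± 0.15 (SE) had an edgeR adjusted p of 0.0851 over both genotypes. In the Atg14-deficient libraries alone the log2 fold change was -0.60 ± 0.19 (SE) with an adjusted p of 0.0440, and in control libraries it was -0.10 ± 0.22 (SE). That adjusted p was 0.0623 in a fit of the 2 groups alone, 0.151, 0.0737 and 0.0813 without Atg14-deficient cTreg replicate 1, 2 or 3, 0.0506, 0.121 and 0.131 without Atg14-deficient eTreg replicate 1, 3 or 4, 0.0536 without control cTreg replicate 1 and 0.0538 without control eTreg replicate 1. The difference between these, an interaction of -0.50 ± 0.29 (SE), had an adjusted p of 1.00. The median log2 fold change of the 10 Tgfbr1 regions between the states was 0.34, and the highest was 0.54.

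Among the receptor Smads, Smad2 had 2 regions higher in eTregs and none lower. The region 79904 bp upstream (chr18:76160825-76161547) had 14.2, 16.3 and 15.2 CPM in control cTregs, 20.2, 14.8, 11.3 and 13.5 CPM in Atg14-deficient cTregs, 22.1, 24.1 and 28.5 CPM in control eTregs and 18.6, 26.8, 19.1 and 23.4 CPM in Atg14-deficient eTregs. A single cTreg library reached into the eTreg range, and the log2 fold change was 0.64 ± 0.17 (SE) with an edgeR adjusted p of 0.00632. The region 281400 bp downstream had 0 to 1.96 CPM in cTregs (median 0.643) and 1.59 to 5.53 CPM in eTregs (median 2.51), with a log2 fold change of 2.08 ± 0.61 (SE) and an adjusted p of 0.0145. In that region 3 of 7 cTreg libraries had no count. Smad3 had 1 called region, 24816 bp upstream (chr9:63782668-63782952), with its 2 RUNX matches. It had 0 to 2.52 CPM in cTregs (median 0.957) and 0.837 to 4.79 CPM in eTregs (median 3.15), with a log2 fold change of 1.61 ± 0.53 (SE) and an edgeR adjusted p of 0.0285. That adjusted p was 0.0558 without control cTreg replicate 3, 0.0573 without Atg14-deficient cTreg replicate 3, 0.0577 without control eTreg replicate 2, 0.0568 without Atg14-deficient eTreg replicate 1 and 0.0588 without Atg14-deficient eTreg replicate 3.

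Smad4 (chr18:73634790-73703791, minus strand), the shared partner of the receptor Smads, had 5 called regions among 9, all within its introns. The largest change was at 54921 bp from the start (chr18:73648431-73648751), with 2.93, 3.83 and 10.7 CPM in control cTregs, 10.9, 13.6, 7.89 and 6.43 CPM in Atg14-deficient cTregs, 0.651, 0.525 and 0.361 CPM in control eTregs and 1.498, 3.35, 1.06 and 1.54 CPM in Atg14-deficient eTregs. Only 1 Atg14-deficient eTreg library exceeded the lowest cTreg library. The log2 fold change was -2.91 ± 0.41 (SE), with an edgeR adjusted p of 1.16e-05. The regions at 60247 and 58517 bp from the start lie next to it. The first had 12.5 to 34.7 CPM in cTregs (median 24.2) and 6.85 to 17.1 CPM in eTregs (median 10.2), and the second 3.16 to 10.9 CPM in cTregs (median 4.497) and 0.721 to 6.69 CPM in eTregs (median 1.80). Their log2 fold changes were -1.18 ± 0.21 and -1.499 ± 0.39 (SE), with edgeR adjusted p of 0.000212 and 0.00594.

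Another Smad4 region, 700 bp into the gene and next to the promoter region, had 6.75 to 15.1 CPM in cTregs (median 10.8) and 1.58 to 7.49 CPM in eTregs (median 5.14). Its log2 fold change was -1.28 ± 0.27 (SE), with an edgeR adjusted p of 0.00124. The region 43060 bp from the start was higher in eTregs instead, with 0.779 to 1.93 CPM in cTregs (median 1.05) and 2.57 to 4.72 CPM in eTregs (median 3.71), without overlap, a log2 fold change of 1.55 ± 0.42 (SE) and an adjusted p of 0.00901. Summed over its 9 regions, Smad4 had 140.4 to 172.6 CPM in cTreg libraries and 113.7 to 129.5 CPM in eTreg libraries, while the promoter region alone had 75.5 to 102.1 and 72.8 to 100.2 CPM.

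**Figure D3:**
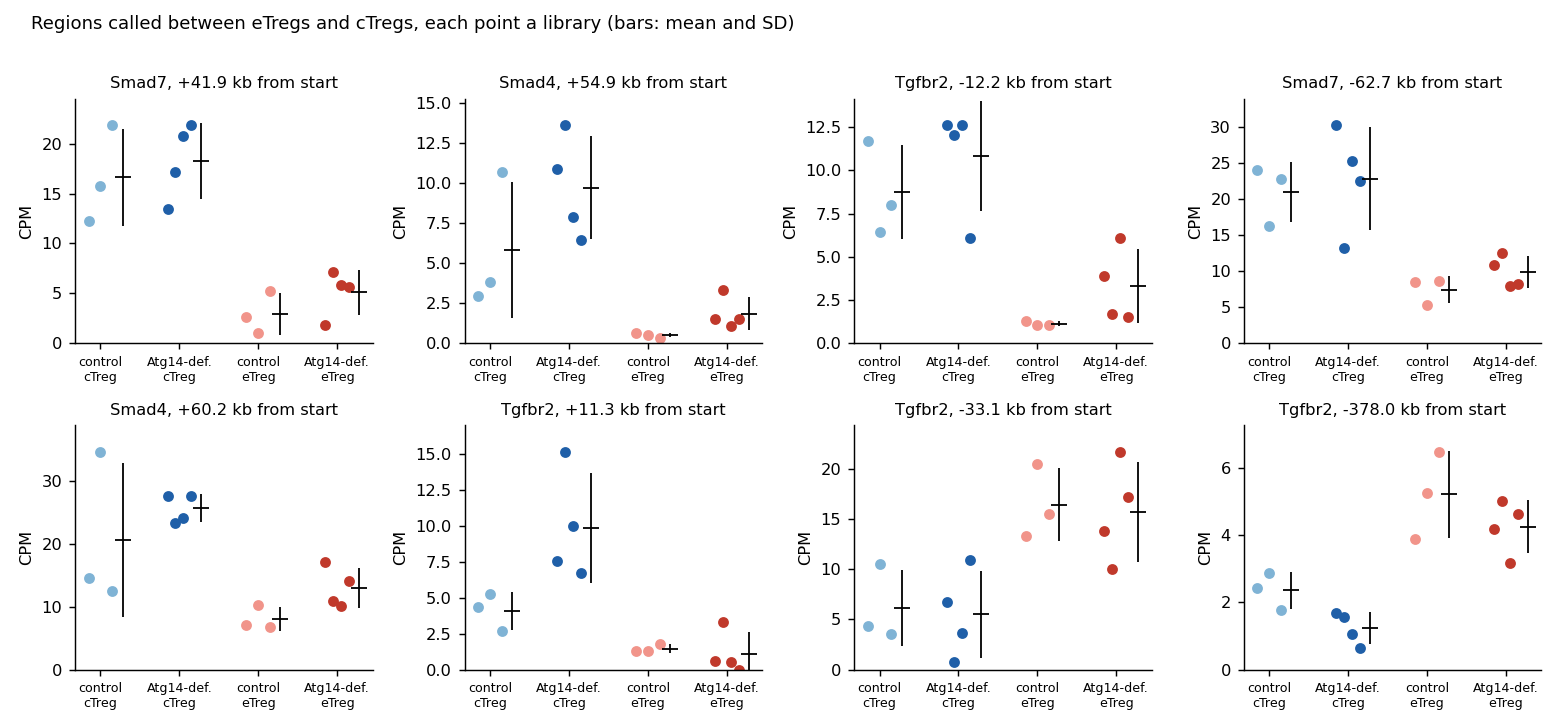
Accessibility in CPM of the 6 regions lower and 2 regions higher in eTregs with the smallest p among called regions beyond 1 on the log2 scale, with each library a point in its group and the mean and SD beside it (3 or 4 libraries a group). The eTreg groups lie below the cTreg groups in the first 6 panels and above them in the last 2, and some libraries overlap at the Tgfbr2 intron region, the Smad4 intron regions and the Tgfbr2 region 33057 bp upstream.

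Smad7 (chr18:75367365-75395935, plus strand), the inhibitory Smad, had 9 regions lower and 2 higher in eTregs among 34 tested. The smallest p of all members was at 41944 bp downstream of the start, beyond the gene's end (chr18:75410188-75410758). It had 12.2, 15.8 and 21.9 CPM in control cTregs, 13.4, 17.1, 20.8 and 21.8 CPM in Atg14-deficient cTregs, 2.60, 1.05 and 5.23 CPM in control eTregs and 1.80, 7.11, 5.82 and 5.65 CPM in Atg14-deficient eTregs. All eTreg libraries were below all cTreg libraries. The log2 fold change was -2.12 ± 0.28 (SE), with an edgeR adjusted p of 5.55e-06. Upstream, the region at 62734 bp (chr18:75304306-75304957) had 24.0, 16.3 and 22.7 CPM in control cTregs, 30.2, 13.2, 25.2 and 22.5 CPM in Atg14-deficient cTregs, 8.46, 5.25 and 8.65 CPM in control eTregs and 10.8, 12.6, 7.94 and 8.22 CPM in Atg14-deficient eTregs. The states did not overlap, the log2 fold change was -1.35 ± 0.20 (SE) and the edgeR adjusted p was 3.01e-05.

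The Smad7 region 87213 bp upstream had 9.81 to 19.5 CPM in cTregs (median 13.9) and 5.14 to 8.29 CPM in eTregs (median 7.16), again without overlap, with a log2 fold change of -1.06 ± 0.20 (SE) and an edgeR adjusted p of 0.000425. A low region 36182 bp upstream had 0.957 to 8.03 CPM in cTregs (median 2.94) and 0 to 1.67 CPM in eTregs (median 0.599), and a log2 fold change of -2.39, which was -4.30 without control eTreg replicate 3, with an edgeR adjusted p of 0.0116 that became 0.0725 without control cTreg replicate 3. The 5 other lower regions, 2 of them in Smad7 introns, had log2 fold changes between -0.91 and -0.52. Higher in eTregs were the regions 86332 bp downstream, with 0 to 7.07 CPM in cTregs (median 3.12) and 2.91 to 13.1 CPM in eTregs (median 7.79) and a log2 fold change of 1.59 ± 0.42 (SE, adjusted p = 0.00860), which was 2.68 without control cTreg replicate 2, and 78567 bp downstream, with a log2 fold change of 0.86. In the former the difference lay mostly with the control libraries, at 2.56 ± 0.66 (SE) on the log2 scale against 0.61 ± 0.53 (SE) in Atg14-deficient libraries, and the interaction of -1.94 ± 0.85 (SE) had an edgeR adjusted p of 1.00.

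At the corepressor genes the called regions were all lower in eTregs. The Ski intron region 27080 bp from the start (chr4:155195355-155195556) had 4.89, 2.63 and 6.24 CPM in control cTregs, 2.52, 5.45, 5.78 and 5.14 CPM in Atg14-deficient cTregs, 1.30, 1.05 and 0.361 CPM in control eTregs and 2.40, 0.837, 3.18 and 1.54 CPM in Atg14-deficient eTregs. A single eTreg library exceeded the lowest cTreg libraries, and the log2 fold change was -1.79 ± 0.42 (SE) with an edgeR adjusted p of 0.00298. Another Ski intron region, 53514 bp from the start, had a log2 fold change of -0.74. The Skil region 9953 bp upstream (chr3:31084974-31085237) had 1.68 to 4.73 CPM in cTregs (median 3.36) and 0.325 to 2.51 CPM in eTregs (median 1.199), with a log2 fold change of -1.34 ± 0.47 (SE) and an adjusted p of 0.0399. It was over 0.05 with loess offsets (0.0530) and without control cTreg replicate 1 (0.113) or 3 (0.0539), Atg14-deficient cTreg replicate 2 (0.0611), 3 (0.0747) or 4 (0.0506), control eTreg replicate 1 (0.0874) or 2 (0.0647), or Atg14-deficient eTreg replicate 1 (0.0602) or 4 (0.0724). An intron region of Skil at 14227 bp had a log2 fold change of -0.55.

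Cell state was also compared in each genotype alone. In control libraries 1 member was higher in eTregs and 9 were lower (0.633% and 5.70%, against 2.01% and 3.29% of all tested regions), and in Atg14-deficient libraries 3 were higher and 11 lower (1.9% and 6.96%, against 4.41% and 5.40%). These comparisons share no library. With the block for the eTreg and cTreg library of each number, the control count was 16, 4 higher (2.53%, against 4.67% of all tested regions) and 12 lower (7.59%, against 5.70%). The Atg14-deficient count was 22, 6 higher (3.80%) and 16 lower (10.1%), which held all 14, and the shares of all tested regions were also larger in that fit, at 7.63% and 7.84%. Of the 9 regions lower in control libraries, all 9 had a negative log2 fold change in Atg14-deficient libraries, with a median of -1.21, and 6 were called there. Of the 11 lower in Atg14-deficient libraries, all 11 were negative in control libraries, with a median of -1.38, and 6 were called. The 1 higher in control and the 3 higher in Atg14-deficient libraries also kept their sign in the other genotype without being called there. The same look-up was not made over all tested regions, so these counts do not set the 8 loci apart. The control count of 10 was 6 without control cTreg replicate 1 or 3, 4 without control eTreg replicate 1 and 5 without control eTreg replicate 2, and the Atg14-deficient count of 14 was 9 without Atg14-deficient cTreg replicate 1 or 2 or Atg14-deficient eTreg replicate 4 and 8 without Atg14-deficient cTreg replicate 3. Calls over all tested regions also fell in these fits. In control libraries 1235 higher and 2016 lower became, in the order given, 400 and 705, 461 and 1113, 527 and 839, and 604 and 1092. In Atg14-deficient libraries 2707 and 3314 became 1823 and 2375, 1684 and 2458, 1487 and 1952, and 1104 and 1655. With promoter share as a covariate the counts were 10 higher (6.33%) and 11 lower (6.96%) in control libraries, against 5.66% and 5.41% of all tested regions, and 12 higher (7.59%) and 13 lower (8.23%) in Atg14-deficient libraries, against 9.91% and 7.82%.

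**Figure D4:**
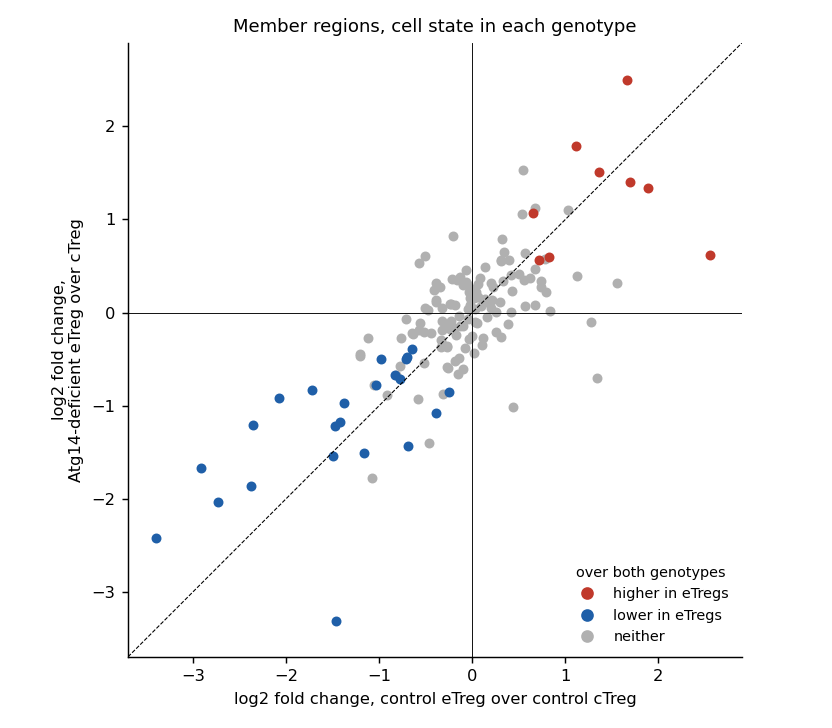
Log2 fold change of eTregs over cTregs in control libraries (x axis) and in Atg14-deficient libraries (y axis), each point 1 of the 158 tested member regions, with the dashed line where both are equal. The regions called over both genotypes (blue lower, red higher in eTregs) have negative and positive values in both genotypes, respectively.

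Loss of Atg14 was compared with control in each cell state. No member passed the adjusted threshold in either state by edgeR, and none by DESeq2's Wald test, where all tested regions gave 0.0228% in eTregs and 0.0163% in cTregs by edgeR. At the unadjusted threshold (p under 0.05 and a log2 fold change beyond 0.5), 12 members were higher in Atg14-deficient eTregs (7.59%, against 4.59% of all tested regions) and 0 lower (against 1.77%), and in cTregs 7 were higher (4.43%, against 1.99%) and 1 was lower (0.633%, against 1.35%). The median log2 fold changes of the members were 0.14 in eTregs and 0.07 in cTregs, against 0.06 and 0.03 over all tested regions. In eTregs the median was 0.02 with promoter share as a covariate (0.03 over all regions), and without 1 library it was between 0.06 (without control eTreg replicate 3, 0.06 over all regions) and 0.19 (without control eTreg replicate 2, 0.09 over all regions). In cTregs it was -0.04 with that covariate (0.00 over all regions), -0.03 without control cTreg replicate 3 (0.01 over all regions) and 0.19 without control cTreg replicate 2 (0.07 over all regions) or Atg14-deficient cTreg replicate 2 (0.03 over all regions). The summed promoter level of the 7 cTreg genes moved with genotype in eTregs, at 264.8 to 306.2 CPM in control and 309.7 to 367.0 CPM in Atg14-deficient libraries, without overlap. That of 4 of 6 Treg genes (Il2ra, Ikzf2, Ctla4 and Cd3e) was 93.7 to 97.4 CPM in control and 117.5 to 125.8 CPM in Atg14-deficient eTregs, and 125.3 to 131.7 and 137.5 to 167.2 CPM in cTregs, also without overlap. In cTregs the sum of the 7 cTreg genes overlapped between genotypes, at 393.5 to 498.9 CPM in control and 442.7 to 515.6 CPM in Atg14-deficient libraries. For the 8 eTreg genes the sums of control and Atg14-deficient libraries overlapped in eTregs (360.7 to 438.0 and 417.9 to 450.0 CPM). They also overlapped in cTregs (337.9 to 411.2 and 380.3 to 405.3 CPM). The part of these sums in the genotype counts was not tested. The split moved with the scaling: in eTregs it was 11 higher and 1 lower with TMM or loess offsets, 12 and 1 with DESeq2 size factors and 7 and 5 with promoter share as a covariate (4.43% and 3.16%, against 4.29% and 3.09% of all tested regions), and in cTregs 6 and 2 with TMM, 3 and 1 with loess offsets and 4 and 4 with that covariate (2.53% each, against 2.21% and 2.65%). Over all tested regions, 72.2% of the regions past the unadjusted threshold were higher in Atg14-deficient eTregs, and this was 60.1% with TMM, 55.8% with loess offsets and 58.1% with the covariate. In cTregs the shares were 59.6%, 53.6%, 47.6% and 45.4%. The eTreg split of 12 higher and 0 lower was 4 and 1 without control eTreg replicate 1 and 5 and 0 without control eTreg replicate 3, and the higher regions were 21 without control eTreg replicate 2 and 7 without Atg14-deficient eTreg replicate 3 or 4. Over all tested regions the split of 2818 and 1084 was 2174 and 844 and 2401 and 974 without control eTreg replicate 1 or 3. The higher regions over all were 3618 without control eTreg replicate 2, and 2532 and 2198 without Atg14-deficient eTreg replicate 3 or 4. The cTreg split of 7 higher and 1 lower was 2 and 3 without Atg14-deficient cTreg replicate 1, 3 and 3 without control cTreg replicate 3, and 4 and 1 without Atg14-deficient cTreg replicate 4 or Atg14-deficient eTreg replicate 3. Over all tested regions the split of 1224 and 828 was, in the order given, 1065 and 791, 1048 and 1138, 1048 and 1459, and 1168 and 770.

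**Figure D5:**
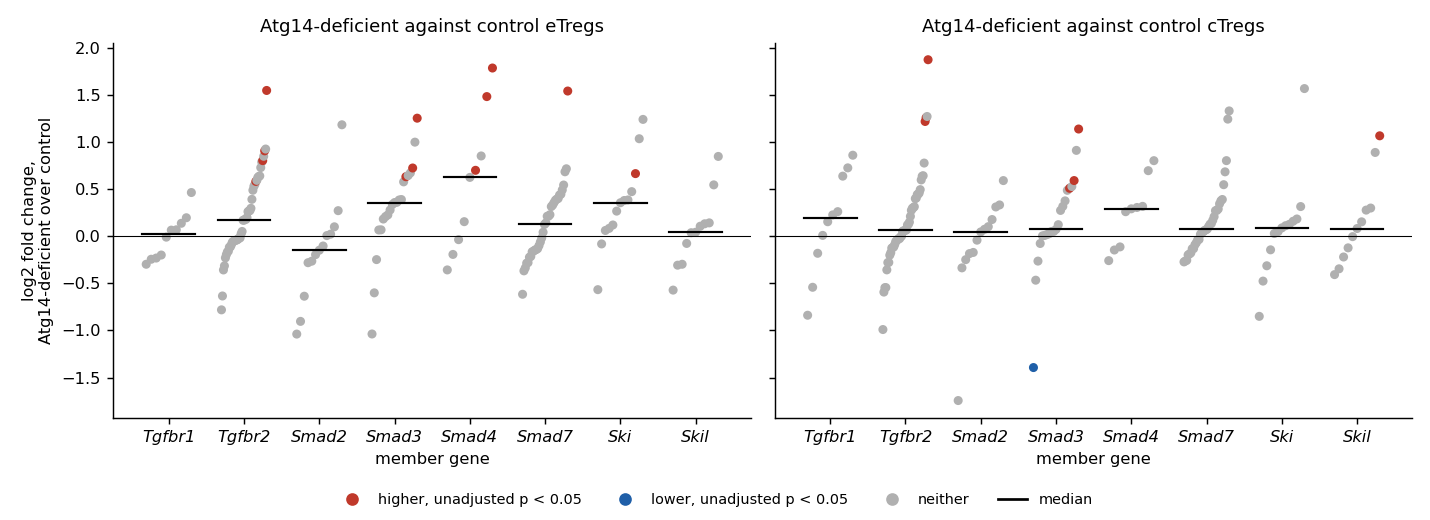
Log2 fold change of Atg14-deficient over control libraries (y axis) of the tested member regions of each gene, in eTregs (left) and cTregs (right), with the black bar the median of the gene and colours for regions past the unadjusted threshold. In eTregs 12 regions are red and none is blue, in cTregs 7 are red and 1 is blue, and no region passed the adjusted threshold.

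In eTregs the 12 regions were at Tgfbr2 (4), Smad3 (3), Smad4 (3), Smad7 (1) and Ski (1). The smallest p was at the Tgfbr2 region 88679 bp upstream (chr9:116263779-116264305), with 12.04, 9.97 and 7.21 CPM in control eTregs and 20.7, 19.7, 15.9 and 15.9 CPM in Atg14-deficient eTregs. These groups did not overlap, and the log2 fold change was 0.90 ± 0.26 (SE), with an unadjusted p of 0.00173 and an edgeR adjusted p of 0.356. In cTregs that region had 15.6, 17.7 and 10.7 CPM in control and 20.2, 24.9, 16.8 and 22.5 CPM in Atg14-deficient libraries, a log2 fold change of 0.49 ± 0.25 (SE). The Tgfbr2 region 12240 bp upstream, given above, was higher in Atg14-deficient than in control eTregs by 1.54 ± 0.54 (SE) on the log2 scale (unadjusted p = 0.00744, edgeR adjusted p = 0.458), and without Atg14-deficient eTreg replicate 3, its highest library, by 1.05 with an unadjusted p of 0.0711. The Smad4 intron region at 54921 bp was higher by 1.78 ± 0.71 (SE, unadjusted p = 0.0171, edgeR adjusted p = 0.534), with unadjusted p of 0.0715 without control eTreg replicate 3 and 0.0655 without Atg14-deficient eTreg replicate 2. Of the promoter regions, that of Smad3 was past the unadjusted threshold, with 9.76, 16.01 and 13.3 CPM in control and 15.3, 20.1, 15.9 and 29.8 CPM in Atg14-deficient eTregs, which was 0.63 ± 0.27 (SE) on the log2 scale with an unadjusted p of 0.0283 and an edgeR adjusted p of 0.570. The unadjusted p was 0.0711 with the replicate block, 0.131 without control eTreg replicate 1, 0.0541 without control eTreg replicate 3 and 0.192 without Atg14-deficient eTreg replicate 4. Without that last library, the highest, the log2 fold change was 0.37.

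In cTregs the smallest unadjusted p of all members was at the Ski promoter region (chr4:155222947-155223657), with 71.4, 58.9 and 105.2 CPM in control and 65.1, 43.2, 57.3 and 57.2 CPM in Atg14-deficient cTregs. The groups overlapped, and the log2 fold change of -0.48 ± 0.17 (SE) was under the fold threshold, with an unadjusted p of 0.00845 and an edgeR adjusted p of 1.00. Without control cTreg replicate 3, its highest library, the log2 fold change was -0.22 with an unadjusted p of 0.183. The Ski promoter region was past the unadjusted threshold with TMM, at -0.51 on the log2 scale. It was also past it without control cTreg replicate 1 (-0.54) or 2 (-0.65) or Atg14-deficient cTreg replicate 1 (-0.56). In none of these fits did it pass the adjusted threshold. Among the 8 regions counted above as past the unadjusted threshold, the smallest p was at a Smad3 intron region, the only one that was lower. It lies 2476 bp upstream of the nearest Smad3 start (chr9:63714611-63714860). It had 4.89, 4.79 and 4.01 CPM in control and 0.840, 3.89, 1.05 and 1.29 CPM in Atg14-deficient cTregs, without overlap. The log2 fold change was -1.39 ± 0.55 (SE), with an unadjusted p of 0.0166 and an edgeR adjusted p of 1.00, and the unadjusted p was 0.0525 without Atg14-deficient cTreg replicate 3. A Smad3 intron region 8718 bp upstream of such a start had 22.2, 25.4 and 16.9 CPM in control and 42.4, 21.0, 33.1 and 34.7 CPM in Atg14-deficient cTregs, with overlap, a log2 fold change of 0.59 ± 0.25 (SE) and an unadjusted p of 0.0229 that was 0.197 with promoter share as a covariate, 0.0943 without control cTreg replicate 3 and 0.0939 without Atg14-deficient cTreg replicate 1. The Tgfbr2 intron region at 11260 bp was higher in Atg14-deficient cTregs by 1.22 ± 0.53 (SE) on the log2 scale, without overlap, with an unadjusted p of 0.0288. That p was 0.0604 without control cTreg replicate 1, 0.0893 without control cTreg replicate 3, 0.118 without Atg14-deficient cTreg replicate 2 and 0.0523 without Atg14-deficient cTreg replicate 3. Over the 158 members, the libraries of the 2 genotypes did not overlap at 11 regions in eTregs, 9 higher (5.70%) and 2 lower (1.27%) with Atg14 loss, against 4.97% and 3.51% of all tested regions. In cTregs they did not overlap at 12, 9 higher (5.70%) and 3 lower (1.9%), against 3.05% and 2.45%.

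The interaction of genotype and cell state, the difference of the genotype effect in eTregs from that in cTregs, passed the adjusted threshold at 0 members and at 0 of all tested regions (0%) by edgeR, and at 0 members by DESeq2. At the unadjusted threshold 1 member was higher and 3 were lower, against 1.9% and 1.14% of all tested regions. The smallest p was at the Tgfbr2 region 272583 bp upstream (chr9:116447797-116448095), with 1.96, 2.87 and 0.892 CPM in control cTregs, 2.52, 3.12, 6.31 and 7.07 CPM in Atg14-deficient cTregs, 5.21, 5.77 and 4.51 CPM in control eTregs and 4.20, 0.837, 4.24 and 2.31 CPM in Atg14-deficient eTregs. The value was -2.04 ± 0.74 (SE) on the log2 scale, with an unadjusted p of 0.0103 and an edgeR adjusted p of 1.00. The count of 4 was 2 without control cTreg replicate 1, control eTreg replicate 1 or Atg14-deficient eTreg replicate 3, and 7 with promoter share as a covariate, 4 higher (2.53%) and 3 lower (1.9%), against 2.63% and 1.62% of all tested regions. Without those libraries all tested regions gave, in the order given, 1099 higher and 875 lower, 1053 and 667, and 1146 and 776, beside 1169 and 702 with every library.

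Other genes of the pathway were counted for comparison, with 59 genes in 5 lists, of which 56 had a region nearest to a start. Of their 522 tested regions 51 were higher in eTregs (9.77%) and 74 lower (14.2%), beside the 8.40% and 10.5% of all tested regions. Among receptors and their modifiers, 7 of 103 were higher and 22 lower, and 11 of the lower regions were at Tgfbr3, the co-receptor betaglycan, where 17 regions were tested and 0 were higher. Among ligands and their activators 7 of 77 were higher and 13 lower, 7 of the lower at Lrrc32, which encodes GARP, the protein that holds latent TGF-beta on the Treg surface. At Lrrc32 22 regions were tested and 1 was higher. Among regulators of Smads 7 of 101 were higher and 12 lower, 8 of the lower at Nedd4l, a ubiquitin ligase, where 23 regions were tested and 3 were higher. None of the 16 regions of Smad1, Smad5, Smad6 and Smad9 was called. Among genes known as targets of the pathway in T cells 30 of 225 were higher and 27 lower. The highest log2 fold change there was at a region of the cell cycle inhibitor Cdkn1a, at 3.35 ± 0.49 (SE, edgeR adjusted p = 3.68e-05). In the genotype comparisons no region of these lists passed the adjusted threshold, and at the unadjusted threshold 21 were higher (4.02%) and 7 lower (1.34%) in Atg14-deficient eTregs, against 4.59% and 1.77% of all tested regions. In cTregs 15 were higher (2.87%) and 5 lower (0.958%), against 1.99% and 1.35%.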

How the data were processed

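The deposited values are counts per region, whole numbers without normalization, of nucleosome-free reads. Per the methods, the authors trimmed reads with Trimmomatic, aligned them with BWA, removed duplicates, shifted read ends for the transposase, called peaks with MACS2 and counted reads in merged peaks with bedtools. The labels' notes name cutadapt 1.9, Picard 1.65 and MACS2 2.1.0.20150603, and mm10 (GRCm38), while the methods name mm9. All 67207 regions on chromosomes lay within GRCm38 and the scaffold names were its own, so that build was used, with RefSeq genes and sequence, and starts are printed counted from 1. Of the counts in a library 74.67% to 86.99% were even, so both read ends may have been counted.

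Libraries were scaled by total counts (CPM) and tested in R 4.3.3 by edgeR 4.0.16 (quasi-likelihood, filter on low counts, robust, 1 coefficient for each of 4 groups, 14 libraries), with Benjamini-Hochberg adjustment over 61366 regions. Python 3.11.15 and SciPy 1.17.1 gave the exact permutation test, whose smallest p is 0.0571 for 3 against 4 libraries and 0.000583 for 7 against 7. The steps were tested on simulated data. Per the study, the cTregs and eTregs came from 3 control and 4 Atg14-deficient chimeras, as many as the libraries of a group, and the labels do not say which chimera a number marks. Replicates of a group differed beyond counting noise. Deviations from the group means of same-numbered cTreg and eTreg libraries correlated at 0.119 to 0.243 in Atg14-deficient (4 pairs) and 0.0543 to 0.209 in control libraries (3 pairs), and those of other numbers at -0.187 to 0.0963 and -0.2 to -0.0116. Within a genotype each pair correlated best with its own number, and the numbers were taken to pair the states from this and the number of chimeras. Libraries of a state with different genotypes and numbers, which share no chimera, correlated at -0.223 to 0.283. A correlation of this size therefore does not by itself show a shared chimera.

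Named regions were, for each gene, the promoter region and the smallest p between cell states, the called regions with a log2 fold change beyond 1, the 3 smallest p past the unadjusted threshold in each genotype comparison, the smallest interaction p, and 5 other regions most like the leading one. 1 gene of the cell type lists is not reported here. The members and lists were chosen with earlier results of these data known. Alternatives were TMM, DESeq2 1.42.0 (size factors and Wald test), loess offsets, no filter or at least 10 counts in every library, promoter share as a covariate, replicate blocks, 2 groups alone, a log2 fold change beyond 1, halved counts, other member rules, a whole-region motif window and each library left out.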

Additional observations from a re-analysis of the deposited data

Results flagged for a closer look

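Among the groups of 4 libraries, 68 were examined over the 34 named regions, and in 4 of them 1 library stood apart from the other 3 by Dixon's test, about the 1 in 20 that chance gives. At the Tgfbr1 promoter region 1 Atg14-deficient cTreg library had 86.0 CPM and the others 61.7 to 65.5 CPM. At the Tgfbr2 region 12240 bp upstream 1 Atg14-deficient cTreg library had 6.10 CPM and the others 12.1 to 12.6 CPM. At the Smad2 promoter region 1 Atg14-deficient eTreg library had 180.3 CPM and the others 137.1 to 143.3 CPM. At the Smad3 intron region 2476 bp upstream of a start, lower in Atg14-deficient cTregs at the unadjusted threshold, 1 Atg14-deficient cTreg library had 3.89 CPM and the others 0.840 to 1.29 CPM. The causes were not tested. No interaction of genotype and cell state passed the adjusted threshold at a member region by edgeR.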

How the results depend on the processing

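Of 368 values of named regions under other settings 362 kept their direction and side of the threshold and 6 did not, and of 559 with a library left out 509 did and 50 did not. No named region that was called changed its sign. The promoter regions, near 0, could: between states that of Tgfbr1 was -0.039 on the log2 scale with the covariate, and that of Smad3 ranged from -0.17 to 0.0387 without 1 library. The counts of member regions moved more. Between cell states over both genotypes, 9 regions were higher and 23 lower. Requiring at least 10 counts in every library left 3 and 13 of 79 members (3.80% and 16.5%, against 6.78% and 11% of all regions left), a log2 fold change beyond 1 left 14 lower, promoter share as a covariate gave 23 higher, and leaving out 1 library gave 7 to 12 higher and 15 to 22 lower. Over all tested regions, leaving out 1 library gave 3999 to 6227 higher and 5069 to 6641 lower, beside 5155 and 6465 with every library. Changes beyond 1 were not counted over all regions. The 10 calls in control libraries became 3 with that filter, 21 with the covariate and 4 to 11 without 1 library, and the 14 in Atg14-deficient libraries became 8, 25 and 8 to 16. With the filter the members were 0% higher and 3.80% lower in control libraries, against 2.16% and 4.06% of all regions left. In Atg14-deficient libraries they were 1.27% and 8.86%, against 5.19% and 7.25%. Without 1 library all tested regions gave 400 to 1788 higher and 705 to 2225 lower in control libraries. In Atg14-deficient libraries they gave 1104 to 3823 and 1655 to 3594. The filter removes low regions, and the causes of the other shifts were not tested.

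At the unadjusted threshold, the 12 regions in eTregs became 7 with that filter, 5 beyond a log2 fold change of 1 and 5 to 21 without 1 library. The 7 were all higher (8.86% of the members left), against 4.96% higher and 2.16% lower of all regions left. Without 1 library all tested regions gave 2174 to 3618 higher and 844 to 1496 lower, beside 2818 and 1084 with every library. The 8 in cTregs became 4 with loess offsets, 2 with the filter, 4 with halved counts and 5 to 11 without 1 library. The 2 were higher (2.53%), against 1.58% higher and 1.18% lower of all regions left. All tested regions, 1224 higher and 828 lower in the main fit, gave 986 and 1084 with loess offsets and 834 and 584 with halved counts. Without 1 library they gave 1048 to 2073 and 658 to 1459. The 4 of the interaction became 1 with the filter, 7 with the covariate and 2 to 6 without 1 library. The 1 was higher (1.27%), against 2.08% higher and 1.33% lower of all regions left. Without 1 library all tested regions gave 953 to 1756 higher and 667 to 1288 lower. At the adjusted threshold the member counts of the genotypes and the interaction were 0 in all settings run and 0 without each library. Over whole regions instead of the central 200 bases, motif shares were higher (SMAD 32.3%, AP-1 25.3%).

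Same-numbered genotypes of a state correlated at -0.217 to 0.0914 in their deviations (6 pairs) and those of other numbers at -0.223 to 0.283 (18 pairs). The replicate numbers were therefore not taken to pair the genotypes. With the replicate block the state counts were 10 higher and 22 lower, 11 in control and 15 in Atg14-deficient libraries, and the unadjusted counts 9 in eTregs and 7 in cTregs. All 61366 tested regions gave 5534 higher and 6456 lower, 1537 and 2232 in control and 3047 and 3479 in Atg14-deficient libraries. At the unadjusted threshold they gave 2343 and 1150 in eTregs and 1097 and 1025 in cTregs. The replicate block within genotype, which pairs the states and whose counts stand in the report, changed no call of a named region between the states over both genotypes.

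The median count of a tested region was 23 a library and the biological coefficient of variation was 25.6%. Low regions at Skil (-9953 bp), Smad3 (-24816 bp) and Tgfbr2 (-162331 bp) lost their state call without 9, 5 and 4 of the 14 libraries in turn, while low regions at Smad4 (43060 bp), Tgfbr2 (-378026 bp) and Ski (27080 bp) lost theirs without 0 of them, and the part of depth in this was not tested.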

Other observations

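The accessibility pattern of the leading Smad7 region, 41944 bp downstream of the start, was set beside all regions outside the 8 loci by Pearson's r of log2 CPM over the 14 libraries, as a description. The 5 with the highest r were nearest to Ptprc, which encodes CD45 (r = 0.956), Nrip1, a nuclear receptor corepressor (0.951), Tmem17 (0.949), Atp5j (0.949) and Dph5 (0.947). Each was lower in eTregs, with log2 fold changes between -3.38 and -1.15.

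Summed over all regions of a locus, Smad7 had 601.1 to 729.3 CPM in cTreg libraries and 511.5 to 627.6 CPM in eTreg libraries, and Smad2 had 200.9 to 248.0 CPM in cTregs and 240.1 to 290.8 CPM in eTregs, with overlap in both. Tgfbr1 had 175.2 to 197.2 CPM in cTregs and 191.3 to 223.8 CPM in eTregs, also with overlap.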
